A study of Rattus norvegicus with 35 samples.

Results

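Hepatocytes differ along the path of the blood through the liver lobule, and 10 genes that mark the ends of that path were followed in livers of rats dosed with TBB, a brominated flame retardant. Pericentral genes, which are strongest around the central vein, were Glul, Cyp2e1, Oat and Axin2. Periportal genes, which are strongest where blood enters, were Cps1, Ass1, Asl, Arg1, Otc and Hal. They were chosen by name, with earlier results of these data known, by taking the probe sets annotated with 1 of these symbols alone. That gave 14 probe sets for the 10 genes, of 14217 genes with such a probe set. Each gene is given by its brightest probe set, the one with the highest mean over all 35 arrays, and its other probe sets stand beside it. Cyp1a2, also pericentral in many accounts, was kept out of the set because it is a target of the aryl hydrocarbon receptor (AhR).

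All samples were livers of Sprague Dawley males that began the study at 7 weeks of age, profiled on single-colour Affymetrix arrays. Vehicle was corn oil by gavage (n = 5). The 5 dose groups received TBB in the same oil for 5 days, at 0.05 mg/kg, 0.55 mg/kg, 5.50 mg/kg, 55 mg/kg and 550 mg/kg (n = 6 each), and tissue was taken 1 day after the last dose. RNA came from a piece of the left lobe, which holds all zones and cell types together, so that fewer cells of a type and less RNA per cell cannot be told apart. The labels do not say that arrays came from separate animals, so p-values measure the spread between these samples.

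The zones are kept apart largely by Wnt signals from endothelial cells of the central vein, which act through beta-catenin and TCF/LEF factors on the neighbouring hepatocytes. Pericentral cells capture leftover ammonia as glutamine and carry much of the cytochrome P450 activity. Periportal cells run the urea cycle, gluconeogenesis and the breakdown of many amino acids.

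The 250 bases before a RefSeq transcript start (assembly GRCr8) were available for 8 of the 10 genes, in 9 windows, Glul having 2. The core to which TCF/LEF factors bind was searched on both strands as CTTTGAA, the variant CTTTGAT, the variant CTTTGTA or the variant CTTTGTT (no match overlapped another). It was present in 3 of 5 pericentral and in 2 of 4 periportal windows, and in 14.9% of all 33469 windows of the same length. The core of the AhR response element, GCGTG, was present in 0 of 5 pericentral and 2 of 4 periportal windows (Ass1 and Otc), and in 25.9% of all windows. The window of Cyp1a2, the AhR target kept out of the set, held 0 AhR cores and 1 TCF/LEF core. The 3 windows below are shown because they put the Wnt feedback gene and a pericentral P450 beside the first urea cycle gene, which also held a match. Capitals mark the TCF/LEF core and all 3 windows lie on the plus strand.
Axin2, chr10:94398535-94398784: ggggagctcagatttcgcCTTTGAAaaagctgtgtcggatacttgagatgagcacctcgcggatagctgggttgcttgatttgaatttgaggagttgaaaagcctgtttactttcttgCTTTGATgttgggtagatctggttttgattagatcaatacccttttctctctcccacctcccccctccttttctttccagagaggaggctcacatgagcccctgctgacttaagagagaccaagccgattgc
Cyp2e1, chr1:205269717-205269966: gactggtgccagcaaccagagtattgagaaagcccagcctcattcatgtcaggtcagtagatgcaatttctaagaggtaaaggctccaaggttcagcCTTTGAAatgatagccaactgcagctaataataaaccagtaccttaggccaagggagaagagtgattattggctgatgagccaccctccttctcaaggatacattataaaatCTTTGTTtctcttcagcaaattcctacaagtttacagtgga
Cps1, chr9:76063613-76063862: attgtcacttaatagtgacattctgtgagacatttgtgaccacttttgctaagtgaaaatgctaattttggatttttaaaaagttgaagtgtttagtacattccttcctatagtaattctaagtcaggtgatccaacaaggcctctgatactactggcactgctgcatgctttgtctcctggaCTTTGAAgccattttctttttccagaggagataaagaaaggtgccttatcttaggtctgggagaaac
The matches began 232 and 132 bases before the transcript start used for Axin2, 153 and 41 bases before that of Cyp2e1, and 67 bases before that of Cps1. The transcript start used for Axin2 lies inside the gene, which spans 94393379 to 94426579 on chr10. A match of 7 letters is a description of the window and not a binding site.

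None of the 10 genes passed an adjusted p of 0.05 at any dose. In limma, with Benjamini-Hochberg adjustment over all 31042 probe sets, 0 of 10 were called at 0.05, 0.55 and 5.50 mg/kg, where 0% of all probe sets were called in each comparison. The count was also 0 of 10 at 55 mg/kg, where 0.00644% of probe sets were called, and at 550 mg/kg, where 0.499% were. It was 0 of 10 for a slope on dose rank (vehicle as 0, the highest dose as 5; 0.171% of all probe sets called) and for any difference among the 6 groups (0.741% called). An ordinary linear model without variance moderation also called 0 of 10 in each comparison. At an unadjusted p under 0.05 the members counted 0, 0, 2, 1 and 2 of 10 from the lowest to the highest dose, 3 for the slope and 4 for any difference. The shares of all probe sets under the same p were 6.05%, 3.86%, 4.95%, 4.20% and 8.67% from the lowest to the highest dose, 9.42% for the slope and 8.32% for any difference. The 4 members for any difference were Asl, Oat, Hal and Ass1. Their unadjusted p in the F test were 0.0043, 0.021, 0.034 and 0.043, and their adjusted p were 0.21, 0.45, 0.53 and 0.57. Cyp1a2, measured on the same arrays, rose by 0.47 ± 0.051 (log2 difference ± SE; 1.39-fold, adjusted p = 1.5e-06) at 55 mg/kg and by 1.03 ± 0.051 (2.05-fold, adjusted p = 3.4e-16) at 550 mg/kg against vehicle.

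**Figure D1:**
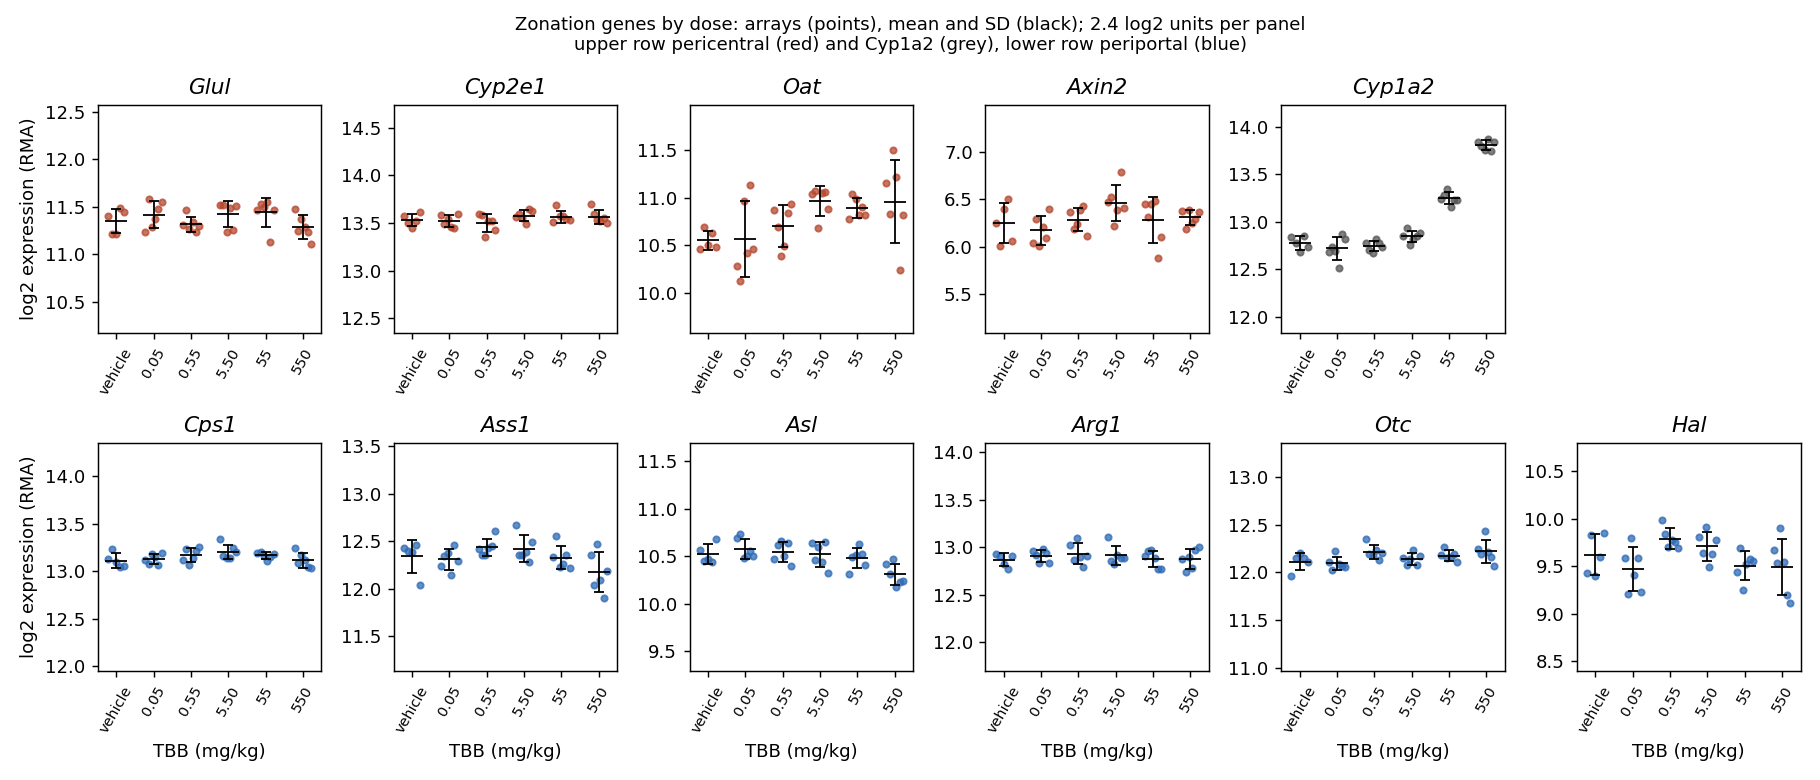
Log2 expression (vertical axis, the same span of log2 units in each panel) of the main probe set of each gene in every array, by TBB dose in mg/kg (horizontal axis), with group means and SD as bars (n = 5 vehicle, n = 6 per dose). The upper row holds the 4 pericentral genes and Cyp1a2, the lower row the 6 periportal genes. Cyp1a2 at 550 mg/kg lies between 13.75 and 13.87, above the vehicle arrays at 12.68 to 12.85. Of the 10 zonation genes, 9 overlap vehicle at every dose and Oat does so at all but 55 mg/kg. Of all probe sets, 0.264% to 1.34% do not overlap vehicle, depending on the dose.

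Among pericentral genes, Glul encodes glutamine synthetase, which joins ammonia to glutamate in the last hepatocytes before the central vein. Its lowest, median and highest log2 values were 11.11, 11.27 and 11.47 at 550 mg/kg. The vehicle arrays stood at 11.40, 11.22, 11.21, 11.48 and 11.44, and the groups overlapped. The difference was -0.063 ± 0.079 (95% interval -0.22 to 0.098, adjusted p = 0.89), and the other 2 Glul probe sets gave -0.0061 and 0.061. Over the doses the group means of the main probe set spanned 0.15, from the 550 mg/kg group as the lowest to the 55 mg/kg group as the highest. The 3 probe sets followed each other over the 35 arrays with r between 0.62 and 0.89.

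Cyp2e1 encodes the P450 that oxidises ethanol and acetaminophen. Its log2 values were 13.50, 13.54 and 13.70 (lowest, median, highest) at 550 mg/kg. The vehicle values were 13.58, 13.50, 13.45, 13.52 and 13.61. The fold was 1.02 with a 95% interval of 0.956 to 1.10 (adjusted p = 0.91), so this gene was among the most narrowly bounded. Its spread between arrays of a group, 0.070, was smaller than that of all but 1.92% of probe sets. RMA values near the top of the range (Cyp2e1's mean lay at percentile 99.9 of all probe sets) can level off, and this was not tested here.

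Axin2 encodes a scaffold of the beta-catenin destruction complex and is itself switched on by Wnt signals, as negative feedback. It was the dimmest of the 10, at percentile 65.3 of probe set means. At 550 mg/kg it had 6.19, 6.33 and 6.38 (lowest, median, highest). In vehicle the values were 6.25, 6.01, 6.40, 6.50 and 6.06. The 550 mg/kg values lay inside the range of the vehicle values, and the difference was 0.062 ± 0.10 (95% interval -0.14 to 0.27, adjusted p = 0.92). At 5.50 mg/kg the difference was 0.22 ± 0.10 (unadjusted p = 0.039, adjusted p = 1).

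Oat encodes ornithine aminotransferase, which feeds ornithine into glutamate in pericentral cells. Its log2 values were 10.24, 10.99 and 11.50 (lowest, median, highest) at 550 mg/kg. At 55 mg/kg they were 10.78, 10.86 and 11.04. At 5.50 mg/kg they were 10.68, 11.05 and 11.08. The vehicle arrays had 10.46, 10.69, 10.50, 10.63 and 10.49. All 6 arrays at 55 mg/kg lay above all vehicle arrays, the only such case among the 10 main probe sets at any dose. Of all probe sets, 0.345% did not overlap vehicle at 55 mg/kg, and the shares at the other doses were 0.454% at 0.05, 0.345% at 0.55, 0.264% at 5.50 and 1.34% at 550 mg/kg. At 550 mg/kg 5 of 6 Oat values lay above the vehicle range and 1, replicate 5, below it.

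The Oat group means, in order of dose from vehicle, were 10.55, 10.56, 10.70, 10.97, 10.89 and 10.96. The difference from vehicle was 0.41 ± 0.16 (1.33-fold, 95% interval 1.06 to 1.66, adjusted p = 0.39) at 550 mg/kg. It was 0.34 ± 0.16 (1.26-fold, adjusted p = 1) at 55 mg/kg and 0.41 ± 0.16 (1.33-fold, adjusted p = 1) at 5.50 mg/kg. At 0.55 and 0.05 mg/kg it was 0.15 and 0.010. The slope was 0.094 ± 0.026 per dose rank (unadjusted p = 0.00078, adjusted p = 0.12). Leaving out replicate 5 of 550 mg/kg gave a slope of 0.12 with an adjusted p of 0.040, the only call of a member among all fits with 1 array left out. That fit called 36 of all 31042 probe sets, and the array left out held the Oat value below the vehicle range. Oat had the widest spread of the 10 genes: its SD within groups was 0.28, at percentile 94.7 of all probe sets, and was 0.44 at 550 mg/kg and 0.099 in vehicle.

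Periportal genes start with Cps1, whose enzyme makes carbamoyl phosphate from ammonia in the first step of the urea cycle. It had 13.03, 13.10 and 13.24 (lowest, median, highest) at 550 mg/kg. Vehicle arrays stood at 13.12, 13.23, 13.09, 13.05 and 13.05. The difference was 0.0033 ± 0.048 (fold 1.00, 95% interval 0.937 to 1.07, adjusted p = 0.99). A second, dimmer Cps1 probe set followed the first only with r = 0.49, and its differences had no order by dose. They were 0.24 at 0.05 mg/kg, 0.22 at 0.55, 0.30 at 5.50, 0.098 at 55 and 0.16 at 550 mg/kg (SE 0.11 each), with unadjusted p of 0.034, 0.050, 0.0085, 0.36 and 0.15 and adjusted p of 0.80, 1, 1, 1 and 0.74. Its arrays lay wholly above vehicle, whose highest value was 11.57, at 0.55 mg/kg (lowest 11.58) and at 5.50 mg/kg (lowest 11.64). Of all probe sets, 0.345% at 0.55 mg/kg and 0.264% at 5.50 mg/kg did not overlap vehicle, in either direction.

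Otc encodes ornithine transcarbamylase, which makes citrulline in mitochondria. It had 12.07, 12.21 and 12.44 (lowest, median, highest) at 550 mg/kg. The vehicle arrays had 11.96, 12.15, 12.21, 12.15 and 12.11, and the groups overlapped. Its difference was 0.11 ± 0.055 (1.08-fold, adjusted p = 0.60) and its slope 0.020 ± 0.0093 per rank (unadjusted p = 0.036, adjusted p = 0.48).

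Ass1 and Asl act in succession in the cytosol, joining citrulline to aspartate and then splitting the product into arginine and fumarate. Ass1 had 11.90, 12.14 and 12.47 (lowest, median, highest) at 550 mg/kg. In vehicle the log2 values were 12.42, 12.40, 12.38, 12.46 and 12.04. The difference was -0.17 ± 0.087 (0.890-fold, 95% interval 0.787 to 1.01, adjusted p = 0.61). Vehicle replicate 5 stood apart from the other 4, within the 550 mg/kg range.

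Asl had 10.18, 10.28 and 10.47 (lowest, median, highest) at 550 mg/kg. The 5 vehicle values were 10.57, 10.45, 10.47, 10.44 and 10.69. The lower end of vehicle overlapped the upper end of 550 mg/kg, where replicate 3 reached 10.47. The difference was -0.22 ± 0.069 (0.861-fold, 95% interval 0.781 to 0.949, unadjusted p = 0.0037, adjusted p = 0.22), the smallest p of the 10 genes at this dose. A second Asl probe set, with r = 0.97 to the first, gave -0.24 ± 0.077 (adjusted p = 0.23). The accession listed for the brighter one belongs to Hnrnpab in RefSeq, whereas that of the second belongs to Asl. The slopes were -0.042 ± 0.012 and -0.048 ± 0.013 per dose rank (adjusted p = 0.14 and 0.13). The Asl group means ran, from vehicle upward in dose, 10.52, 10.58, 10.55, 10.52, 10.48 and 10.31.

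Arg1 encodes arginase, which releases urea. It had 12.73, 12.88 and 13.00 (lowest, median, highest) at 550 mg/kg. The vehicle arrays had 12.93, 12.90, 12.82, 12.77 and 12.91. The difference was 0.0085 ± 0.059 (95% interval -0.11 to 0.13, adjusted p = 0.99). Its 6 group means spanned 0.063, the narrowest span of the 10.

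Hal encodes histidine ammonia-lyase, the first enzyme of histidine breakdown. It had 9.11, 9.54 and 9.90 (lowest, median, highest) at 550 mg/kg. In vehicle it had 9.43, 9.83, 9.40, 9.59 and 9.85. The difference was -0.13 ± 0.12 (0.916-fold, 95% interval 0.778 to 1.08, adjusted p = 0.84). Hal reached its highest group mean, 9.79, at 0.55 mg/kg and its lowest, 9.47, at 0.05 mg/kg. For each of the 10 genes, when the 6 groups were put in order of their means, all 5 neighbouring pairs of groups overlapped in range. Such an order puts groups of similar mean side by side, so this overlap cannot show that dose had no effect. The share of all probe sets with such overlap was not counted. At the lower doses the differences of the 10 genes from vehicle ran between -0.15 (Hal) and 0.066 (Glul) at 0.05 mg/kg, between -0.036 (Glul) and 0.17 (Hal) at 0.55 mg/kg, between -0.0048 (Asl) and 0.41 (Oat) at 5.50 mg/kg, and between -0.11 (Hal) and 0.34 (Oat) at 55 mg/kg. The half-width of a 95% interval of such a difference was 0.098 for Cps1, the narrowest, and 0.32 for Oat, the widest.

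**Figure D2:**
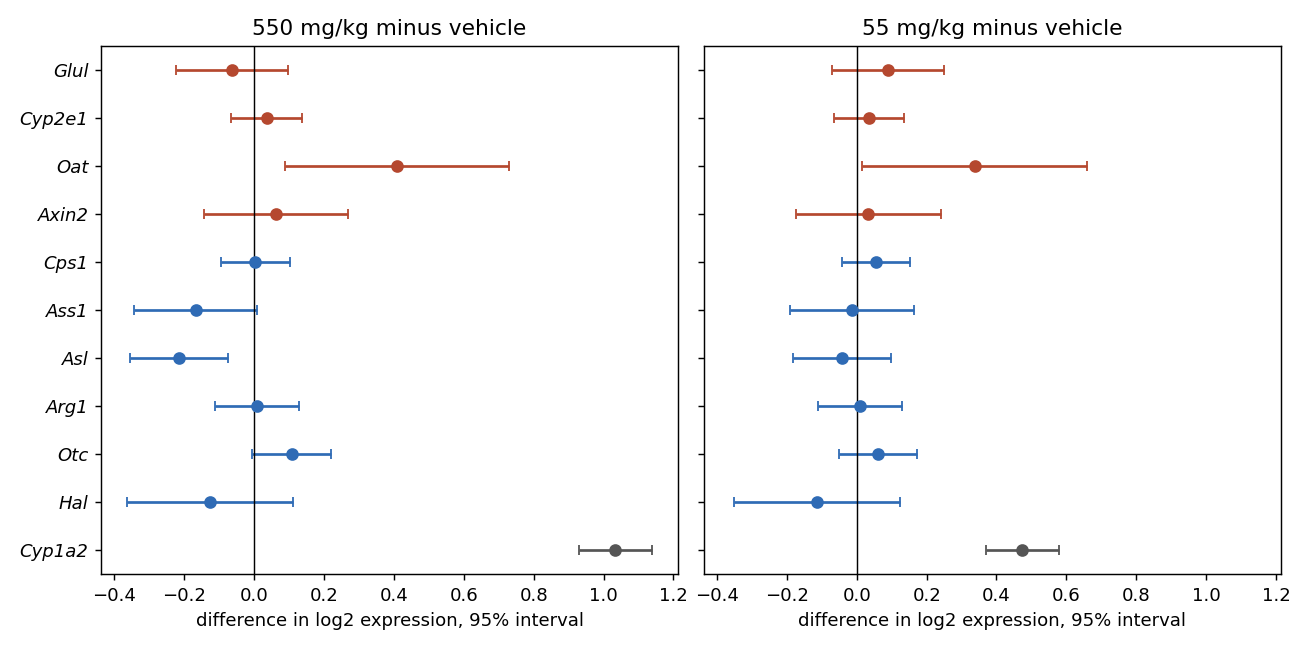
Difference in log2 expression from vehicle (horizontal axis) with its 95% interval from limma, for the 4 pericentral genes (red), the 6 periportal genes (blue) and Cyp1a2 (grey), at 550 mg/kg in the left panel and 55 mg/kg in the right. At 550 mg/kg the intervals of Oat (0.087 to 0.73) and Asl (-0.36 to -0.075) leave out 0 before adjustment, and that of Cyp1a2 (0.93 to 1.14) lies above every zonation gene.

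Side by side, the 4 pericentral genes had a median difference from vehicle of 0.049 at 550 mg/kg and the 6 periportal genes one of -0.061, beside 0.0024 over all probe sets. At 55 mg/kg the pericentral, periportal and overall medians were 0.063, -0.0028 and 0.0015, and at 5.50 mg/kg they were 0.14, 0.064 and 0.0020. At 0.55 mg/kg they were 0.0036, 0.079 and 0.0026 in the same order, and at 0.05 mg/kg -0.0004, 0.0013 and 0.0043. Differences above 0 counted 2, 2, 4, 4 and 3 of 4 pericentral genes and 3, 6, 5, 3 and 3 of 6 periportal genes from the lowest to the highest dose. Over all 31042 probe sets they counted 16098, 15977, 15830, 15735 and 15835. The 5 dose comparisons share the vehicle arrays. For each array the mean of its centred log2 values was taken over either class, and the periportal mean was subtracted from the pericentral one. That balance averaged, from vehicle upward in dose, -0.068 ± 0.095, -0.056 ± 0.11, -0.12 ± 0.072, 0.064 ± 0.12, 0.064 ± 0.10 and 0.11 ± 0.059 (SD). The 550 mg/kg arrays lay between 0.019 and 0.19 and the vehicle arrays between -0.20 and 0.063, so 1 vehicle array overlapped them. The balance was 0.18 higher at 550 mg/kg than in vehicle. With Oat left out, a choice made after seeing the data, the difference was 0.077, and with Cyp1a2 counted as pericentral it was 0.36. No p is given for the balance, a score over chosen genes.

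**Figure D3:**
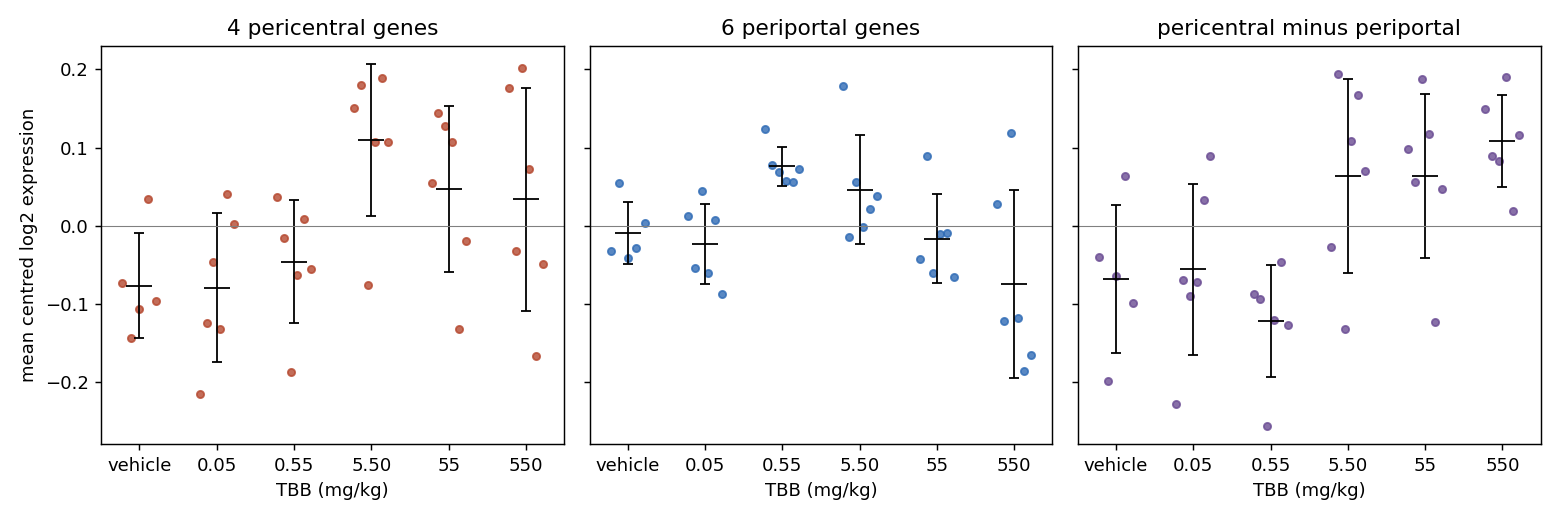
Mean centred log2 expression (vertical axis) of the pericentral genes, the periportal genes and their difference in each array, by TBB dose in mg/kg (horizontal axis), with group means and SD as bars. The difference runs between 0.019 and 0.19 at 550 mg/kg and between -0.20 and 0.063 in vehicle.

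Within dose groups, after each gene's group means were removed, correlations between the 45 pairs of genes were mostly low. The median r over 35 arrays was 0.15 for the 6 pericentral pairs (-0.017 to 0.39), 0.17 for the 15 periportal pairs (-0.14 to 0.62) and 0.076 for the 24 mixed pairs (-0.40 to 0.57). These are descriptions, since all pairs share the same arrays and normalisation. Oat, a pericentral gene by its textbook place, had r of 0.57 with Ass1, 0.52 with Hal, 0.44 with Otc and 0.41 with Cps1, but -0.063 with Asl and -0.17 with Arg1. With the other pericentral genes its r was 0.13 for Glul, 0.068 for Cyp2e1 and -0.017 for Axin2. With the 2 arrays of most extreme Oat left out, its r was 0.46 with Ass1, 0.46 with Hal, 0.52 with Otc, 0.50 with Cps1, -0.15 with Asl and -0.12 with Arg1, and 0.084, 0.16 and 0.013 with Glul, Cyp2e1 and Axin2. Spearman's rho over all 35 arrays was 0.47, 0.44, 0.35, 0.44, -0.13 and -0.15 for the 6 periportal genes in that order. The highest r of any pair was that of Otc with Hal, 0.62, and the lowest that of Axin2 with Hal, -0.40.

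**Figure D4:**
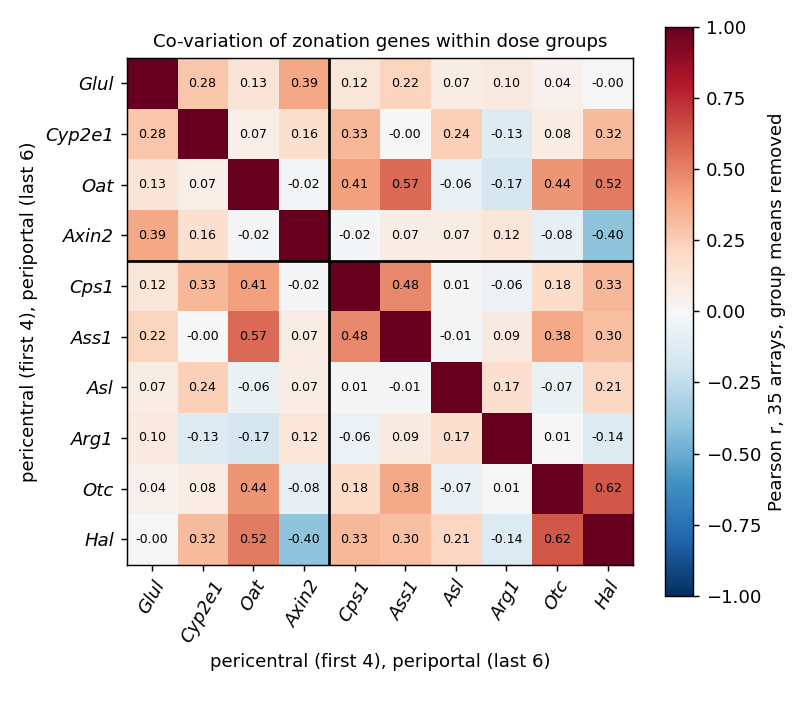
Pearson's r between each pair of the 10 genes over 35 arrays after removal of group means, with colour running between -1 and 1. The row of Oat is warmest against Ass1 (0.57) and Hal (0.52), and palest against Axin2 (-0.017).

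The gene most like each member over the 35 arrays, by Pearson's r of main probe sets with dose differences left in, was Lgr4 for Glul (0.57), Slc4a4 for Cyp2e1 (0.64), Pon3 for Oat (0.78) and Tp53bp2 for Axin2 (0.65). For the periportal genes it was Spink1l for Cps1 (0.62), Gls2 for Ass1 (0.76), Cpn1 for Asl (0.79), Klf13 for Arg1 (0.69), Ivd for Otc (0.69) and Abca8a for Hal (0.72). Lgr4 is a receptor for R-spondins, which strengthen Wnt signals, and Gls2 is the liver glutaminase that supplies ammonia to periportal cells. Each was picked as the highest of the 14217 genes with a single-symbol probe set, the member itself left out. With group means removed, r for these pairs, in the order given, was 0.56, 0.66, 0.74, 0.68, 0.70, 0.70, 0.63, 0.71, 0.65 and 0.75. Their ranks among all genes were then 6, 2, 3, 3, 2, 4, 9, 3, 13 and 1, so that only Abca8a remained first, for Hal.

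Other genes of the zones were mostly without a call at 550 mg/kg. Of all probe sets, 0.499% were called at this dose and 8.67% had an unadjusted p under 0.05. Of 14 measured Wnt ligands, receptors and signalling genes 0 were called and 1 had an unadjusted p under 0.05, the ligand Wnt2 at 0.28 ± 0.10 (adjusted p = 0.33). Of 7 measured Wnt target and feedback genes 0 were called, with Tcf7, a TCF factor, at -0.29 ± 0.10 (adjusted p = 0.31). Of 8 urea cycle partners and genes of ammonia handling 0 were called, with the ornithine carrier Slc25a15 at -0.12 ± 0.052 (adjusted p = 0.51). Slc25a15 has 6 probe sets, of which only the brightest is given. Of 9 other periportal genes 0 were called, with the gluconeogenic Fbp1 at -0.14 ± 0.049 (adjusted p = 0.32). Of 2 further genes of histidine breakdown 0 were called, with Uroc1 at 0.11 ± 0.097 (adjusted p = 0.84).

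Among 7 other pericentral enzymes and transporters 1 fell, Slc13a3, a sodium-coupled dicarboxylate transporter (0.499% of all probe sets were called at 550 mg/kg). It had 7.51, 8.07 and 8.27 (lowest, median, highest) at 550 mg/kg. The vehicle arrays had 8.51, 8.49, 8.47, 8.67 and 8.68, and the groups did not overlap, as for 1.34% of all probe sets. Its means at the other doses were 8.54 to 8.71 and in vehicle 8.56, with no call at those doses (adjusted p = 1). The difference at 550 mg/kg was -0.56 ± 0.10 (95% interval -0.76 to -0.35, adjusted p = 0.0031 in limma), and the F test over the 6 groups gave an adjusted p of 0.00039. A fit to the 550 mg/kg and vehicle arrays alone gave an adjusted p of 0.078, and leaving out 1 array at a time gave differences of -0.61 to -0.46.

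The mean log2 level of 9 hepatocyte markers was 13.56 to 13.59 at 550 mg/kg and 13.63 to 13.69 in vehicle, without overlap. Of these 9 markers 1 fell, Apoa1, the main protein of HDL, by 0.51 on the log2 scale (adjusted p = 7.3e-06). Over the other 8 the ranges were 13.63 to 13.66 at 550 mg/kg and 13.65 to 13.72 in vehicle, which overlapped. At 550 mg/kg 0.499% of all probe sets were called, and 1.34% of them, taken singly, did not overlap vehicle. No marker of Kupffer cells (8 measured), endothelial cells (6), stellate cells (8), cholangiocytes (5), lymphocytes (6) or neutrophils (3) was called at 550 mg/kg. Mean levels were 8.46 to 9.19 at 550 mg/kg and 8.89 to 9.23 in vehicle for Kupffer cells, 7.99 to 8.17 and 8.13 to 8.23 for endothelial cells, and 6.84 to 7.35 and 6.90 to 7.51 for stellate cells. They were 5.17 to 5.50 and 5.05 to 5.49 for cholangiocytes, 4.60 to 4.80 and 4.64 to 4.91 for lymphocytes, and 4.32 to 5.00 and 4.35 to 5.00 for neutrophils. The part of these levels in the zonation values was not tested. Between the 3' and 5' control probe sets of actin the log2 difference was 1.03 to 1.32 at 550 mg/kg and 1.15 to 1.35 in vehicle, and no 2 arrays were identical.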

How the data were processed

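RNA of 35 rat liver samples in 6 groups, per the labels, was measured on Affymetrix arrays. The deposited values are log2 expression per probe set, which the authors made by RMA; affy is the tool named with it, per the submitters' processing notes. Versions and chip definition: not given in the sources used here. RMA gives arrays nearly equal distributions, so a change shared by most genes would not show, and dim or near-saturated probe sets have shrunken folds. No further normalisation was applied. How many arrays a group has sets the precision.

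The table holds 31099 probe sets, and 31042 were fitted, without 57 controls. In the annotation of the platform, 20826 carry a single symbol (20758 matched RefSeq genes), 436 carry several and 9780 are not listed. Genes were named from the first kind alone.

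The main fit was limma 3.58.1 (lmFit and eBayes, R 4.3.3) over all 35 arrays with 1 mean per group: 5 doses against vehicle, a moderated F over the 6 groups, and a slope on dose rank 0 to 5, two-sided, with Benjamini-Hochberg adjustment and an adjusted p under 0.05 as the threshold. The design text names another R package, which was not used here. The fit was tested on simulated data. Other software was data.table (version 1.17.8), Python 3.11.15, matplotlib 3.10.9 and numpy 2.4.6.

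The members and the other lists (further pericentral genes, Wnt targets, Wnt ligands and receptors, urea cycle partners and ammonia handling, histidine breakdown, further periportal genes, and markers of hepatocytes, Kupffer, endothelial and stellate cells, cholangiocytes, lymphocytes and neutrophils) were chosen with earlier results of these data known. Named were the 10 members, Cyp1a2, of each other pathway list its called members (up to 3) or else the one with the smallest p at 550 mg/kg, and the gene with the highest r to each member. Second probe sets of members stand beside the first. For genes of the other lists only the brightest probe set is given. Of the cell type lists only called members were named. Genes on the chosen lists without a single-symbol probe set have no value here.

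Promoter windows and coordinates are RefSeq's, assembly GRCr8. Alternatives were a filter on the 40% dimmest probe sets, array medians, cyclic loess, trend and robust eBayes, no variance moderation, weights per array, a replicate block, 1 probe set per gene, the mean over a gene's probe sets, only the groups compared, and each array left out in turn.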

Additional observations from a re-analysis of the deposited data

Results flagged for a closer look

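In 60 checks of a member within a group and 6 checks of the balance, 5 arrays stood farther from their group than Dixon's 95% limit, where chance gives about 1 in 20. Glul at 55 mg/kg had 11.13 in replicate 5, below the other arrays of that dose at 11.47 to 11.55. Cyp2e1 at 55 mg/kg had 13.69 in replicate 2, above the others at 13.51 to 13.57. Ass1 in vehicle had 12.04 in replicate 5, below the others at 12.38 to 12.46, and Ass1 at 0.55 mg/kg had 12.60 in replicate 6, above the others at 12.35 to 12.44. Arg1 at 5.50 mg/kg had 13.10 in replicate 1, above the others at 12.83 to 12.92. The 5 values came from 5 different arrays.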

How the results depend on the processing

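Under 10 alternatives other than leaving out an array, 584 of 590 values of the 10 genes kept their sign and their side of the threshold, and 0 were called. The other 6 changed sign, all of them within their errors: Oat at 0.05 mg/kg was -0.051 with array weights, Glul at 0.55 mg/kg was 0.0034 as the mean of its probe sets, Asl at 5.50 mg/kg was 0.017 with the replicate block, Cps1 at 550 mg/kg was -0.0069 with array medians and -0.0058 with cyclic loess, and Arg1 at 550 mg/kg was -0.0017 with array medians. The cause was not tested.

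With each array left out in turn, 856 of 900 differences and slopes kept both sign and call, 43 changed sign and 1 was called. Ranges that crossed 0 were, at 0.05 mg/kg, -0.031 to 0.0090 for Cyp2e1, -0.10 to 0.099 for Oat, -0.11 to 0.0019 for Ass1 and -0.057 to 0.0055 for Otc. At 0.55 mg/kg the range was -0.020 to 0.10 for Axin2, and at 5.50 mg/kg -0.031 to 0.036 for Asl and -0.011 to 0.051 for Otc. At 55 mg/kg they were -0.025 to 0.11 for Axin2, -0.090 to 0.015 for Ass1 and -0.016 to 0.030 for Arg1. At 550 mg/kg they were -0.022 to 0.034 for Cps1 and -0.016 to 0.037 for Arg1, and for the slope -0.0099 to 0.0019 for Glul and -0.0068 to 0.0011 for Arg1. The number of members called for the slope was 0 to 1 with an array left out, the 1 being Oat without replicate 5 of 550 mg/kg. In that fit 36 of all 31042 probe sets were called. Elsewhere the number of members called was 0.

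The balance of pericentral over periportal genes, 550 mg/kg minus vehicle, was 0.18. It was 0.14 to 0.21 with an array left out, 0.36 with Cyp1a2 included, and 0.077 with Oat left out, an alternative chosen after seeing the data.

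Same-numbered arrays of different groups had a median correlation of deviations of -0.01 over 85 pairs (-0.31 to 0.27). Differently numbered ones had a median of 0 over 425 pairs (-0.37 to 0.36). The correlation exceeded 0.1 in 17 of the same-numbered and 95 of the differently numbered pairs. By their medians the replicate numbers showed no pairing, and whether some arrays share a batch was not tested. With the replicate block 0 of 10 genes were called in each of the 7 comparisons, and the calls among all probe sets at 550 mg/kg numbered 115 instead of 155. Across alternatives the calls among all probe sets ran between 41 (only those 2 groups fitted) and 198 at 550 mg/kg, between 175 and 383 for any difference and between 43 and 141 for the slope. With an array left out they were 77 to 142, 128 to 248 and 20 to 104 for these comparisons.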
